A study of Mus musculus with 6 samples.

Results

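The genes described here are 10 mitochondrial chaperones and proteases: Hspd1, Hspe1, Hspa9, Grpel1, Dnaja3, Trap1, Lonp1, Clpp, Clpx and Spg7. They were chosen by name and function, and all 10 were found among the 54532 genes measured. The list was drawn up when differences between the groups compared below were already known, so those differences are given as a description, without p-values. RNA was sequenced from mouse cells labelled as primary lung fibroblasts, in 3 libraries titled calumenin KD (KD1 to KD3) and 3 titled NC (NC1 to NC3). The study asked how calumenin, a calcium-binding protein of the secretory pathway encoded by Calu, bears on senescence and fibrosis signalling. The sample descriptions call the KD libraries KO and the NC libraries WT, and neither the reagent or allele used nor the meaning of NC is spelled out. No label says that libraries came from separate cultures or animals. The p-values therefore set a group difference only against the variation between libraries, which may be technical.

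Most mitochondrial proteins are made in the cytosol, threaded unfolded through the mitochondrial membranes and refolded inside. In the matrix, mortalin, the mitochondrial HSP70, pulls in and folds incoming chains, and the HSP60 and HSP10 chaperonin gives them a closed chamber to fold in. Proteins that fail to fold are broken down by ATP-dependent proteases of the matrix and the inner membrane, and several of these genes are known targets of the mitochondrial unfolded protein response.

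Hspd1 and Hspe1, which encode the HSP60 and HSP10 parts of the chaperonin, lie head to head on chromosome 1, and their shared promoter is shown because these genes differed most among the 10. Hspd1 (ENSMUSG00000025980) lies at chr1:55077835-55088243 on the minus strand and Hspe1 (ENSMUSG00000073676) at chr1:55088132-55091307 on the plus strand, in mm10 coordinates as deposited. The deposited spans overlap by 112 bases on opposite strands. The strand setting of the counting is not given in the sources used here, so reads from that stretch cannot be told apart. RefSeq (GRCm38.p6) gives Hspe1 a start site at position 55088148, and gives Hspd1 an inner start at 55087932 and an outer start at 55088243. The window printed is chr1:55087898-55088197 on the plus strand, from 250 bases before the Hspe1 start to 50 after it. The window of the inner Hspd1 start holds 285 of the same bases. Capitals mark a run of 18 bases at chr1:55088059-55088076 in which 3 heat shock element matches overlap.
Hspe1: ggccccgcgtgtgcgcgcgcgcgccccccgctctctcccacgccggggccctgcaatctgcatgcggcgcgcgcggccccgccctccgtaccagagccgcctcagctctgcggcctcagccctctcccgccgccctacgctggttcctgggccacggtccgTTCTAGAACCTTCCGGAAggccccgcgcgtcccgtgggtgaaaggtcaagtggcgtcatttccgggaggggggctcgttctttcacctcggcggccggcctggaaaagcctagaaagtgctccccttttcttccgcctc
The motif was searched on both strands in 2 forms, GAANNTTC and TTCNNGAA, which are pairs of the unit that heat shock factors bind. The run lies 72 to 89 bases upstream of the Hspe1 start and 127 to 144 bases upstream of the inner Hspd1 start. Of 32851 RefSeq promoter windows of 300 bases, 7.86% held the first form, 8.52% the second and 1.32% both. Windows with 3 or more matches made up 0.256%, and among the members' windows those of Hspe1 and of the inner Hspd1 start were of this kind. A match describes the letters and is not a measured binding site.

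**Figure D1:**
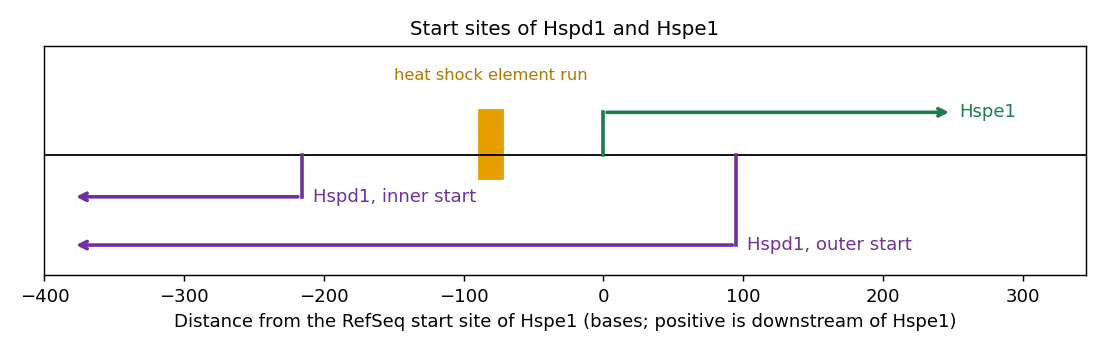
Start sites of Hspd1 and Hspe1 as RefSeq (GRCm38.p6) gives them. The x axis is the distance in bases from the Hspe1 start, arrows point in the direction of transcription, and the block marks the run of 3 heat shock element matches, which lies between the Hspe1 start and the inner Hspd1 start, 216 bases apart.

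RefSeq windows were matched for 9 of the 10 members, with 10 windows in all because Hspd1 has both starts; Hspa9 was not matched. Clpp was the remaining member with a heat shock element match, 33 bases downstream of its RefSeq start at 56990264. That match lies just before the deposited start of Clpp at 56990305. The NRF1 core, GCATGCGC, a motif of a factor that drives nuclear genes for mitochondrial proteins, was in 2.71% of all windows. It was in the window of Grpel1, 36 bases upstream of the RefSeq start, and in that of Clpx, 86 bases upstream. For Grpel1 the RefSeq start is 36465185 and the deposited span starts at 36464998, so the match lies inside that span. These stretches are shown to place the matches, which are in capitals. In GRCm38.p6 they are chr17:56990274-56990313 for Clpp, chr5:36465133-36465172 for Grpel1 and chr9:65294158-65294197 for Clpx, all on the plus strand.
Clpp: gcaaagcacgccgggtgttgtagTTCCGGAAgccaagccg
Grpel1: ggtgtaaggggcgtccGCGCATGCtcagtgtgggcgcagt
Clpx: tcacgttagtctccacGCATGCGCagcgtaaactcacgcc
The composite motif of ATF4 and C/EBP factors, searched as TGATGNAAT, was in 0.965% of all windows and in 0 of the 10 windows here. The GC box, GGGCGG, was in 35.7% of all windows and in windows of 7 member genes. The CCAAT box was in 37.4% of all windows and in windows of 4 member genes.

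The libraries held between 15907164 and 18312888 reads on genes. Calu had 14.6, 12.6 and 13.1 FPKM (fragments per kilobase of gene length, scaled to sequencing depth) in KD1 to KD3, against 219.9, 226.6 and 224.8 FPKM in NC1 to NC3, so that the KD mean was 6.0% of the NC mean. Of 10 fibroblast markers, 7 averaged at least 1 FPKM, with summed levels of 1628 to 1662 FPKM in KD and 1367 to 1422 FPKM in NC. Within the list Col1a1 (284 FPKM in KD and 149 FPKM in NC) and Fn1 (295 FPKM in KD and 173 FPKM in NC) were higher in KD. So were Col1a2 (450 FPKM in KD and 403 FPKM in NC) and Pdgfra (11.2 FPKM in KD and 7.05 FPKM in NC). Col3a1 (10.9 FPKM in KD and 24.6 FPKM in NC), Pdgfrb and Vim were lower. Lum was at 0 in all 6 libraries, Dcn at or near 0 and Thy1 at 0.169 FPKM or less. No marker of epithelial cells (of 7), endothelial cells (of 5) or smooth muscle and pericytes (of 5) averaged 1 FPKM, and 2 of 6 leukocyte markers, Cd68 and Lyz2, did. KD1 stood apart from KD2 and KD3. Across genes, the deviation of a library from the mean of the libraries had a Spearman correlation with GC content of -0.411 in KD1, 0.343 in KD2 and 0.492 in KD3, and of -0.238 to -0.0407 in NC. The mitochondrial chromosome gave 2.56% of the reads of KD1 and 1.60 to 1.97% of those of the other 5 libraries.

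Both chaperonin genes were lower in KD, and neither group of libraries overlapped the other. Hspd1, which encodes the HSP60 subunits that form the folding chamber, had 225.1, 242.5 and 249.2 FPKM in KD1 to KD3, against 367.6, 375.5 and 384.3 FPKM in NC1 to NC3. Every KD library lay far below every NC library, and the KD mean of 239 ± 12.4 FPKM (SD, n = 3) was 63.6% of the NC mean of 376 ± 8.34 FPKM (SD, n = 3). The difference was -0.65 on the log2(FPKM + 1) scale, KD minus NC, with an SE of 0.06. It rested on 32756 reads in KD and 47459 in NC.

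Hspe1, which encodes the HSP10 lid of the chamber, had 60.3, 60.5 and 67.0 FPKM in KD1 to KD3, against 102.0, 100.1 and 103.5 FPKM in NC1 to NC3. Again the highest KD library was well under the lowest NC library. The means were 62.6 ± 3.82 FPKM in KD and 102 ± 1.70 FPKM in NC (SD, n = 3 each), a log2 difference of -0.70 with an SE of 0.06. Without KD1 the log2 differences were -0.61 for Hspd1 and -0.67 for Hspe1. With the GC and length trend of each library removed they were -0.57 and -0.64, in the same gene order. In bulk RNA, fewer cells of a type and less RNA per cell cannot be told apart.

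Both genes were lower in nearly the same proportion. The ratio of FPKM was 3.73, 4.01 and 3.72 in KD1 to KD3, against 3.60, 3.75 and 3.71 in NC1 to NC3, and the groups overlapped. The ratio depends on the deposited gene lengths, 2642 bases for Hspd1 and 1474 for Hspe1. With the lengths of the main GENCODE transcripts, 2423 and 774 bases, it averaged 2.19 ± 0.09 in KD and 2.11 ± 0.04 in NC (SD, n = 3 each).

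Reads can also be shared with pseudogenes. Of 12 pseudogenes named after members, 7 were at 0 in all 6 libraries and 1 averaged over 1 FPKM. That one, Hspd1-ps3 on chromosome 11, had 11.1, 12.2 and 9.30 FPKM in KD1 to KD3, against 20.6, 16.9 and 15.7 FPKM in NC1 to NC3. It was lower in every KD library, as its parent was, and the ratio of Hspd1 to Hspd1-ps3 was 20.3, 19.9 and 26.8 in KD against 17.9, 22.2 and 24.5 in NC. Whether its reads come from Hspd1 was not tested.

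Genes next to the pair were also looked at. The chromosome 1 genes as a whole had a median log2 difference of -0.15, and with each chromosome's median removed the differences were -0.50 for Hspd1 and -0.54 for Hspe1. Among the nearest 3 tested genes on each side, 2 passed the limma threshold described below. The splicing factor gene Sf3b1 averaged 38.9 FPKM in KD and 51.0 FPKM in NC (log2 difference -0.38, limma adjusted p = 0.011). Mars2, the mitochondrial methionyl-tRNA synthetase, averaged 3.33 FPKM in KD and 4.65 FPKM in NC (log2 difference -0.38, limma adjusted p = 0.0175). Coq10b, Mob4, Ankrd44 and Gm8292 did not pass, with log2 differences of -0.35, -0.45, -0.05 and 0.38. These neighbours were chosen after the values of Hspd1 and Hspe1 were seen.

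**Figure D2:**
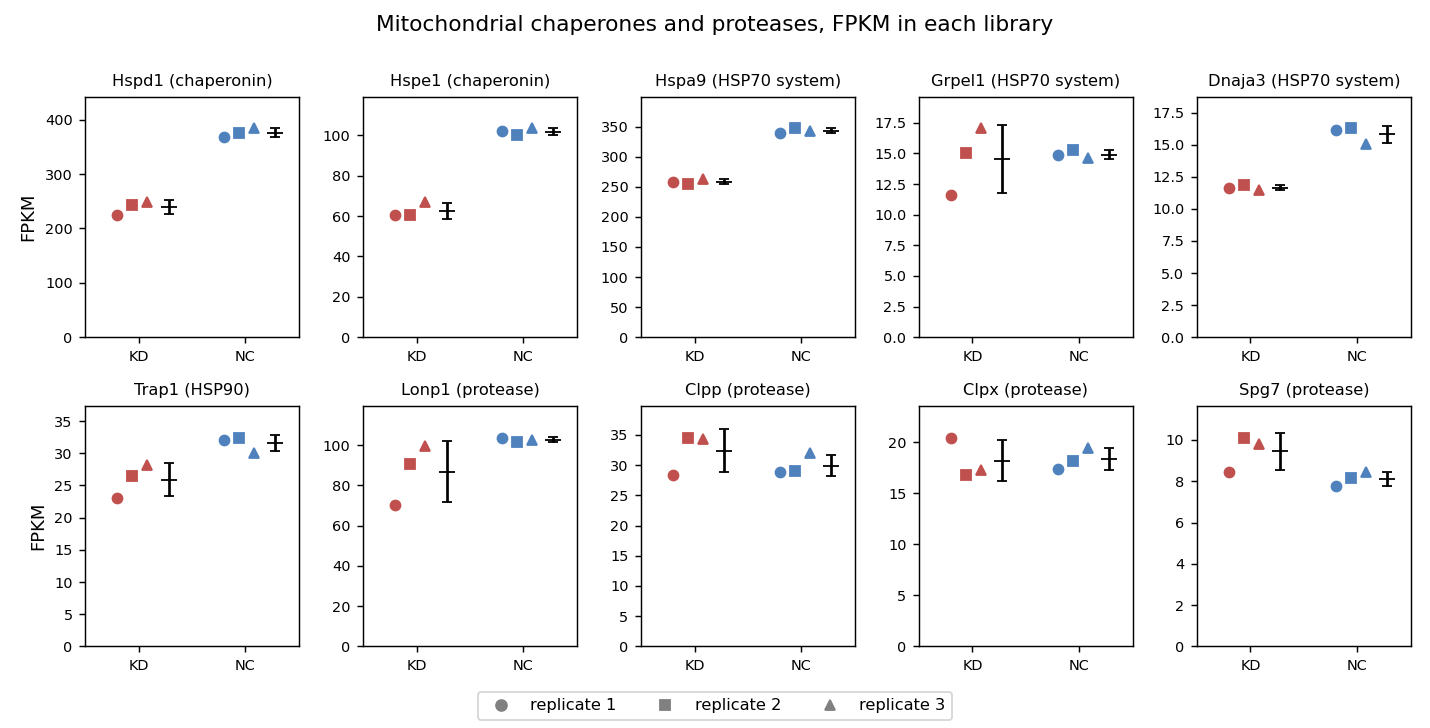
FPKM of each of the 10 genes in the 3 KD and 3 NC libraries. Each panel has its own y axis starting at 0, marker shapes give the replicate number, and the bar beside each group is the mean with its SD. The KD and NC points are apart for Hspd1, Hspe1, Hspa9, Dnaja3, Trap1 and Lonp1, and KD1 lies away from KD2 and KD3 for Grpel1, Lonp1, Clpp and Clpx.

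In the HSP70 system, the chaperone Hspa9 and its J-protein Dnaja3 were lower in KD by a similar proportion, while the exchange factor Grpel1 was at a similar mean level in both groups. Hspa9 (ENSMUSG00000024359, chr18:34937414-34954357, minus strand) encodes mortalin, the motor of matrix import. It had 258.6, 254.3 and 263.1 FPKM in KD1 to KD3, against 340.0, 347.3 and 342.1 FPKM in NC1 to NC3. The libraries of each group lay close together and the groups were far apart, with a log2 difference of -0.41 (SE 0.05). Without KD1 it was also -0.41, and with the GC and length trend removed it was -0.32.

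Dnaja3 (ENSMUSG00000004069, chr16:4639989-4707695, plus strand) encodes the J-protein that hands substrates to mortalin and stimulates its ATPase. Its level was 11.6, 11.9 and 11.5 FPKM in KD1 to KD3, against 16.1, 16.3 and 15.0 FPKM in NC1 to NC3. The groups did not overlap, and the log2 difference was -0.41 (SE 0.06), the same to 2 decimals without KD1. The deposited span of Dnaja3 overlaps Coro7 on the opposite strand by 39789 bases and Vasn on the same strand by 10814 bases. Coro7 was at 2.44 to 2.67 FPKM in KD and 2.73 to 2.86 FPKM in NC, and Vasn at 9.33 to 11.97 FPKM in KD and 9.86 to 10.496 FPKM in NC. How the counting split reads among the 3 genes is not given in the sources used here.

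Grpel1 (ENSMUSG00000029198, chr5:36464998-36474080, plus strand) encodes the factor that frees ADP from mortalin. It had 11.6, 15.0 and 17.1 FPKM in KD1 to KD3, against 14.9, 15.3 and 14.6 FPKM in NC1 to NC3. KD1 was below all NC libraries and KD3 above them, and the log2 difference was -0.05 (SE 0.13), or 0.10 without KD1. The deposited span of Grpel1 overlaps Tada2b on the opposite strand by 411 bases. Tada2b was at 18.1 to 21.3 FPKM in KD and 19.3 to 22.8 FPKM in NC. The ratio of Hspa9 to Dnaja3 was 22.3, 21.5 and 22.9 in KD, against 21.1, 21.3 and 22.8 in NC, and the groups overlapped. The ratio of Hspa9 to Grpel1 was 22.3, 16.9 and 15.4 in KD, against 22.9, 22.7 and 23.4 in NC, and each KD library lay below the NC libraries, KD1 nearest to them.

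Trap1 (ENSMUSG00000005981, chr16:4039971-4077827, minus strand) encodes the HSP90 of mitochondria. It had 23.1, 26.5 and 28.1 FPKM in KD1 to KD3, against 32.1, 32.5 and 30.1 FPKM in NC1 to NC3. The groups did not overlap, and KD3 and NC3 were the libraries nearest to each other. The log2 difference was -0.28 (SE 0.08), and -0.20 without KD1. It was negative in the 17 alternative analyses, between -0.34 and -0.20, but passed the threshold in only 6 of them.

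The proteases differed among themselves. Lonp1 (ENSMUSG00000041168, chr17:56614297-56626887, minus strand) encodes the LON protease of the matrix, which removes oxidised and misfolded proteins. It had 70.3, 90.8 and 99.4 FPKM in KD1 to KD3, against 103.8, 101.3 and 102.6 FPKM in NC1 to NC3. Each KD library was below the NC libraries, KD1 far below and KD3 nearest to them. The log2 difference was -0.25 (SE 0.12) and did not pass the threshold. It was -0.11 without KD1, and -0.33 with the GC and length trend removed, where it did pass. Chromosome 17 had a median log2 difference of 0.17, and with that removed the difference of Lonp1 was -0.42 and did not pass.

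Clpp and Clpx encode the 2 parts of the matrix protease ClpXP, the peptidase chamber and the unfoldase that feeds it. Clpp (ENSMUSG00000002660, chr17:56990305-56996188, plus strand) had 28.3, 34.6 and 34.3 FPKM in KD1 to KD3, against 28.8, 29.0 and 31.9 FPKM in NC1 to NC3. KD1 was the lowest of the 6 libraries, while KD2 and KD3 were the highest. Its log2 difference was 0.11 (SE 0.09), and 0.20 without KD1, where it passed the threshold. With the GC and length trend removed it was -0.02, and with the median of chromosome 17 removed it was -0.06. Clpx (ENSMUSG00000015357, chr9:65294260-65330658, plus strand) showed the opposite order among the KD libraries, with 20.5, 16.8 and 17.3 FPKM in KD1 to KD3, against 17.4, 18.2 and 19.5 FPKM in NC1 to NC3. The groups overlapped, with a log2 difference of -0.02 (SE 0.09). The ratio of Clpp to Clpx was therefore 1.38 in KD1, 2.06 in KD2 and 1.98 in KD3, against 1.66, 1.59 and 1.64 in NC1 to NC3. KD1 was below and KD2 and KD3 above every NC library.

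Spg7 (ENSMUSG00000000738, chr8:123062942-123097760, plus strand) encodes paraplegin, a subunit of the inner membrane m-AAA protease. It had the lowest level of the 10 genes in both groups, 8.43, 10.1 and 9.80 FPKM in KD1 to KD3, against 7.77, 8.16 and 8.45 FPKM in NC1 to NC3. KD2 and KD3 were above every NC library, and KD1 was just below NC3. Its log2 difference of 0.19 (SE 0.08) was 0.26 without KD1, where it passed the threshold. Chromosome 8 had a median log2 difference of 0.17, and with that removed the difference of Spg7 was 0.02.

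The departure of KD1 from KD2 and KD3 was uneven over the 10 genes. On the log2 scale KD1 lay below their mean by most for Grpel1 (-0.43), Lonp1 (-0.43), Clpp (-0.27), Trap1 (-0.23) and Spg7 (-0.22). It lay above it for Clpx (0.25), and nearer to it for Hspd1 (-0.13), Hspe1 (-0.08), Dnaja3 (-0.01) and Hspa9 (0.00). In the order of these departures, the GC content of the gene was 47.3% for Grpel1, 56.5% for Lonp1, 57.8% for Clpp, 52.1% for Trap1, 54.2% for Spg7 and 46.8% for Hspd1. It was 45.5% for Hspe1, 50.6% for Dnaja3, 45.9% for Hspa9 and 44.6% for Clpx. The 3 genes of highest GC content lay below in KD1 and the gene of lowest GC content above, but Grpel1 lay as far below as Lonp1 at a GC content near that of Hspd1 and Hspa9, and Dnaja3 hardly departed. The part that GC content plays in the departure of KD1 was not tested beyond the trend removal above.

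**Figure D3:**
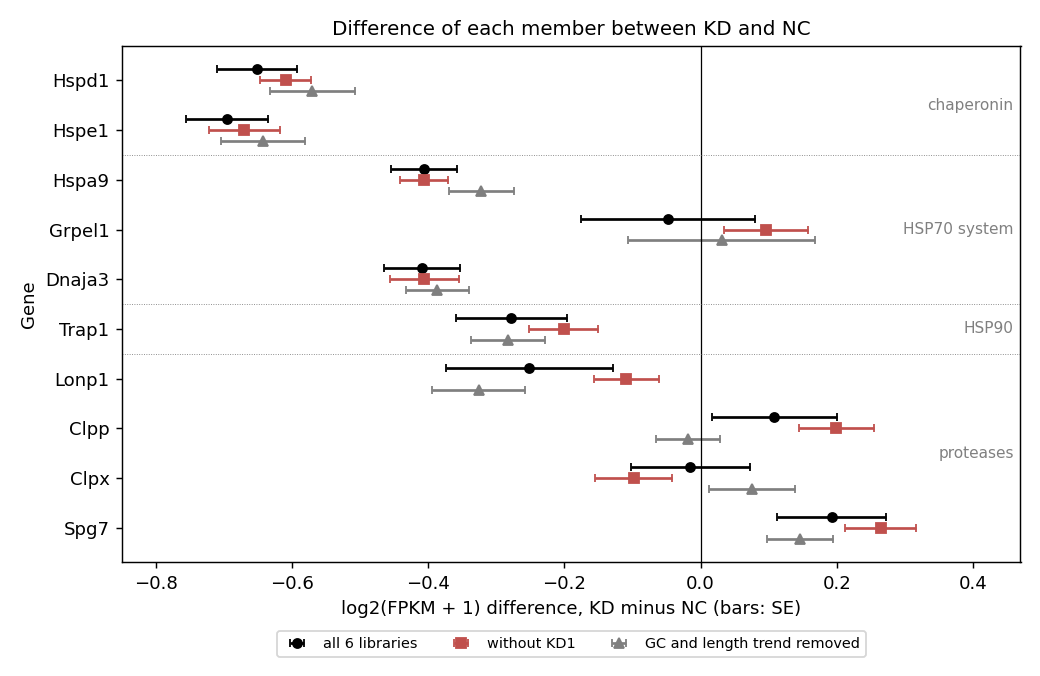
Log2(FPKM + 1) difference of each gene, KD minus NC, with bars of 1 SE. Circles use all 6 libraries, squares leave out KD1 and triangles have the GC and length trend of each library removed. The 3 estimates stay below -0.3 for Hspd1, Hspe1, Hspa9 and Dnaja3, while those of Grpel1, Clpp and Clpx fall on both sides of 0.

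The threshold was a limma adjusted p under 0.05 over the 12299 genes that averaged at least 1 FPKM, and all 10 genes were among them. Lower in KD past it were 5 members, Hspd1, Hspe1, Hspa9, Dnaja3 and Trap1, beside 13.6% of all genes tested. Higher past it were 0 members, beside 10.9% of all genes tested; 1 member was higher at an unadjusted p under 0.05, and 0 were higher with voom. Complete separation was seen for 6 members with all KD libraries below all NC libraries, beside 22.9% of all genes tested, and for 0 with all KD libraries above, beside 21.3%. The median log2 difference was -0.26 over the members and 0.01 over all genes tested. The members were listed with this contrast known, so these counts describe them and support nothing further. Hspd1, Hspe1, Hspa9 and Dnaja3 passed in all 17 alternatives. Without KD1, 2648 of all genes tested were lower past the threshold and 2572 higher, against 1672 and 1344 with all 6 libraries. The calls and counts without KD1 given for members and lists stand beside this general rise.

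Placed among all genes tested, Hspe1 had a difference lower than all but 3.44% of genes and Hspd1 lower than all but 3.74%. The share of genes with a lower difference was 9.21% for Dnaja3, 9.31% for Hspa9, 16.3% for Trap1 and 18.1% for Lonp1. It was 41.5% for Grpel1, 46.4% for Clpx, 64.6% for Clpp and 75.8% for Spg7. The chaperones thus held the lower places and the proteases the middle and upper ones, Lonp1 and Grpel1 being the exceptions.

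The order of levels per length changed at the top. In KD it ran Hspa9, Hspd1, Lonp1, Hspe1, Clpp, Trap1, Clpx, Grpel1, Dnaja3 and Spg7, from high to low FPKM. In NC it ran Hspd1, Hspa9, Lonp1, Hspe1, Trap1, Clpp, Clpx, Dnaja3, Grpel1 and Spg7. Neighbours whose libraries overlapped were Clpx with Grpel1 and Grpel1 with Dnaja3 in KD, and Lonp1 with Hspe1, Trap1 with Clpp and Dnaja3 with Grpel1 in NC. The ratio of Hspd1 to Hspa9 was 0.871, 0.954 and 0.947 in KD1 to KD3, against 1.08, 1.08 and 1.12 in NC1 to NC3, so HSP60 RNA per length was below mortalin RNA in each KD library and above it in each NC library. The ratio of Lonp1 to Clpp, the LON protease to the peptidase part of ClpXP, was 2.48, 2.63 and 2.90 in KD, against 3.60, 3.50 and 3.21 in NC, again without overlap.

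**Figure D4:**
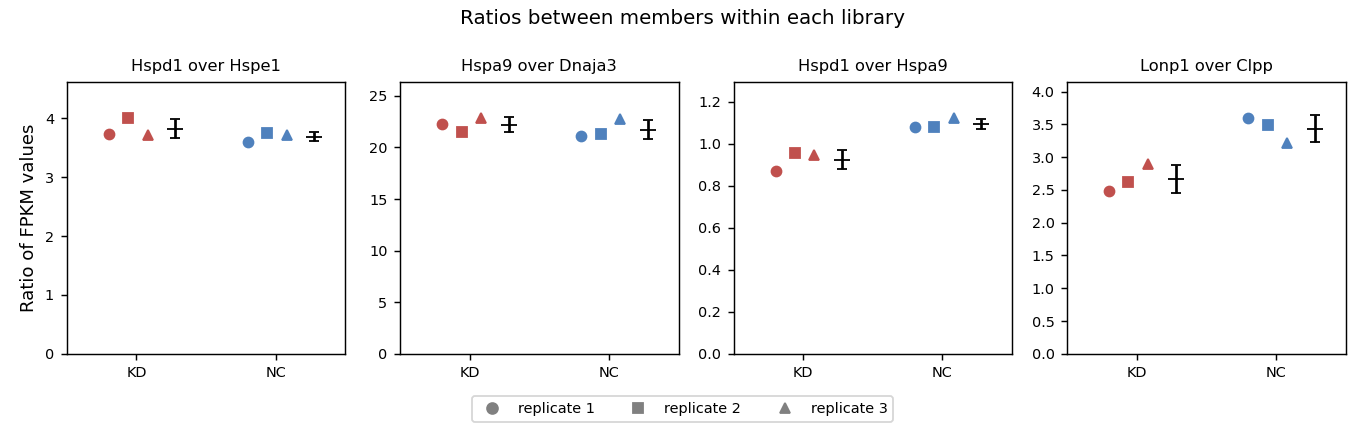
Ratios of FPKM between pairs of the genes within each library, with the mean and SD of the 3 KD and 3 NC libraries and y axes starting at 0. Hspd1 over Hspe1 and Hspa9 over Dnaja3 overlap between the groups, while Hspd1 over Hspa9 and Lonp1 over Clpp are lower in every KD library.

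Summed by role, the chaperones lay further below NC than the proteases did. The chaperonin pair summed to 302 ± 15.5 FPKM in KD and 478 ± 9.26 FPKM in NC, 63.1% of NC. The HSP70 system summed to 285 ± 5.87 FPKM in KD and 374 ± 4.38 FPKM in NC, 76.2% of NC. Trap1, alone in its role, was at 82.1% of NC. Each sum of several genes was carried mostly by 1 gene, Hspd1, Hspa9 (259 FPKM in KD) or Lonp1 (86.9 FPKM in KD). Taken singly, the chaperone gene Grpel1 was at 97.6% of NC and the protease gene Lonp1 at 84.7%. The 4 proteases summed to 147 ± 17.3 FPKM in KD and 159 ± 3.10 FPKM in NC, 92.4% of NC (SD, n = 3 in each group).

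Related genes were then read in lists that were drawn up with earlier results of these data known. Of 16 other mitochondrial proteases and peptidases, all tested, 6 (37.5%) fell, 2 (12.5%) rose and 8 did not pass, beside 13.6% lower and 10.9% higher over all genes tested. The median log2 difference was -0.18. The decreases included Immp2l, a signal peptidase of the inner membrane, at 2.48 FPKM in KD and 4.18 FPKM in NC (log2 difference -0.57, limma adjusted p = 0.00659). Pitrm1, which digests cleaved presequences, averaged 32.6 FPKM in KD and 47.9 FPKM in NC (log2 difference -0.54, limma adjusted p = 0.00227). Both subunits of the presequence-cleaving peptidase fell too, Pmpca by 0.35 and Pmpcb by 0.30 on the log2 scale. Atp23 fell to 3.09 FPKM in KD, against 4.73 FPKM in NC (limma adjusted p = 0.0235). Lactb, a serine protease-like protein of the intermembrane space, rose to 3.15 FPKM in KD, against 2.03 FPKM in NC (log2 difference 0.46, limma adjusted p = 0.0244). The other increase was Oma1, a stress-activated protease of the inner membrane, with a log2 difference of 0.45 (limma adjusted p = 0.0309); Pmpca, Pmpcb and Oma1 were picked for mention after their values were seen. The partner of paraplegin, Afg3l2, did not pass, at 28.6 FPKM in KD and 31.9 FPKM in NC (limma adjusted p = 0.265). Several calls did not hold when 1 library was left out, whichever of several libraries that was. That of Atp23 ended without KD3, NC1 or NC3 (limma adjusted p of 0.0536 to 0.0759), that of Lactb without KD2, KD3, NC1 or NC2 (0.0596 to 0.0914), and that of Oma1 without KD2, KD3, NC2 or NC3 (0.0676 to 0.108). The sixth decrease, Xpnpep3, was lost when any library but KD1 was left out (0.0683 to 0.111). With no filter on low values Atp23 (0.0658), Lactb (0.0735), Oma1 (0.0933) and Xpnpep3 (0.0651) did not pass, and with the GC and length trend removed Pmpcb did not (0.0531). The count of increases was 0 without KD2, KD3 or NC2, 1 without NC1 or NC3, and 3 without KD1.

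Of 14 other co-chaperones and assembly factors, 4 (28.6%) fell, 0 rose and 10 did not pass, with a median of -0.10. Over all genes tested 13.6% were lower and 10.9% higher. Ppif, the matrix prolyl isomerase cyclophilin D, averaged 17.3 FPKM in KD and 31.3 FPKM in NC (log2 difference -0.82, limma adjusted p = 0.00112), a larger difference than that of any member. Dnajc15, a J-protein of the import motor, averaged 2.79 FPKM in KD and 4.91 FPKM in NC (log2 difference -0.64, limma adjusted p = 0.00322). The prohibitin scaffold genes also fell, Phb2 to 38.1 FPKM in KD against 55.5 FPKM in NC (limma adjusted p = 0.0149) and Phb to 29.3 FPKM in KD against 35.3 FPKM in NC (limma adjusted p = 0.0142). Grpel2, the relative of Grpel1, did not pass, at 7.56 FPKM in KD and 7.75 FPKM in NC. One gene was higher at an unadjusted p under 0.05 and 0 with voom. The count of decreases was 2 without NC1, NC2 or NC3, since the calls of Phb (limma adjusted p of 0.059 to 0.076) and Phb2 (0.0539 to 0.0593) ended. The call of Phb also ended without KD2 (0.0685), and 1 gene rose without KD1.

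Of 23 genes of the import machinery, 22 were tested, and 3 fell, 0 rose and 19 did not pass, with a median of -0.09. The 3 decreases are 13.6% of the genes tested in the list, the same share as over all genes tested, of which 10.9% were higher. The outer membrane receptor genes Tomm70a and Tomm22 fell, Tomm70a to 19.5 FPKM in KD against 28.1 FPKM in NC (limma adjusted p = 0.00901) and Tomm22 to 36.4 FPKM in KD against 45.4 FPKM in NC (limma adjusted p = 0.006). Timm17a, a subunit of the inner membrane channel, fell to 4.87 FPKM in KD, against 6.70 FPKM in NC (limma adjusted p = 0.0155), and its call ended without NC1, NC2 or NC3, with limma adjusted p of 0.0583 to 0.0659, and with the GC and length trend removed (0.0695). One gene was higher at an unadjusted p under 0.05 and 0 with voom; without KD1, 1 gene rose.

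Of 19 relatives of HSP60, HSP70 and HSP90 outside mitochondria, 17 were tested. Of these 8 (47.1%) fell, 0 rose and 9 did not pass, with a median of -0.20. Over all genes tested 13.6% were lower and 10.9% higher. Of the 8 subunits of the cytosolic chaperonin, the HSP60 relative that folds actin and tubulin, 7 fell and Tcp1 did not pass, at 89.1 FPKM in KD and 97.5 FPKM in NC (limma adjusted p = 0.23). Cct2 averaged 131 FPKM in KD and 197 FPKM in NC (log2 difference -0.59, limma adjusted p = 0.00085). Cct5 averaged 226 FPKM in KD and 302 FPKM in NC (log2 difference -0.42, limma adjusted p = 0.00415). Cct7 and Cct8 fell by 0.48 and 0.39 on the log2 scale. The remaining decrease was Hspa4, an exchange factor of cytosolic HSP70, whose call ended with no filter on low values (limma adjusted p = 0.0585) and when any library but KD1 was left out (0.057 to 0.102). The constitutive HSP70 Hspa8 did not pass, at 326 FPKM in KD and 314 FPKM in NC (limma adjusted p = 0.594). The same held for the endoplasmic reticulum HSP70 Hspa5, at 428 FPKM in KD and 389 FPKM in NC (limma adjusted p = 0.0907). Hsp90ab1 of the cytosol and Hsp90b1 of the endoplasmic reticulum did not pass either, with limma adjusted p of 0.421 and 0.966. One gene was higher at an unadjusted p under 0.05 and 1 with voom. The count of decreases was 5 without KD2, NC1 or NC3, where the calls of Cct4, Cct6a and Hspa4 ended, and without KD1 it was 10, with 1 increase. Calls over all genes tested rose as well without KD1, from 1672 to 2648 lower and from 1344 to 2572 higher.

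Of 13 regulators of mitochondrial stress responses, 4 (30.8%) fell, 0 rose and 9 did not pass, with a median of -0.02. Over all genes tested 13.6% were lower and 10.9% higher. Ddit3, which encodes the stress factor CHOP, averaged 23.4 FPKM in KD and 48.3 FPKM in NC (log2 difference -1.02, limma adjusted p = 0.000572); of the 2 entries with this symbol, the one with the higher mean was used. Atf4, the main effector of the integrated stress response, averaged 166 FPKM in KD and 222 FPKM in NC (log2 difference -0.42, limma adjusted p = 0.00715). Its relative Atf5 did not pass and had a log2 difference of 0.24 (limma adjusted p = 0.122). Hsf1, the heat shock factor, fell to 9.10 FPKM in KD, against 11.4 FPKM in NC (limma adjusted p = 0.0159). Tfam, the packaging factor of mitochondrial DNA, fell to 12.4 FPKM in KD, against 15.9 FPKM in NC (limma adjusted p = 0.0228). The calls of Hsf1 and Tfam ended without KD2, NC1, NC2 or NC3, and that of Tfam also without KD3, with limma adjusted p of 0.0551 to 0.0889, and the count of decreases was then 2 without KD2, NC1, NC2 or NC3. Higher at an unadjusted p under 0.05 were 3 genes, and 2 passed with voom and 2 without KD1.

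Genes read as markers of mitochondrial mass were checked beside the members. Of 10, 3 (30.0%) fell, 0 rose and 7 did not pass, beside 13.6% lower and 10.9% higher over all genes tested. The median log2 difference was -0.26 for the members and -0.13 for these markers. Without KD1 the medians were -0.155 and -0.152, nearly equal. The member median then lay between Trap1 (-0.20) and Lonp1 (-0.11). Hspd1, Hspe1, Hspa9 and Dnaja3 stayed at -0.61, -0.67, -0.41 and -0.41 without KD1. Grpel1, Clpx, Clpp and Spg7 were at 0.10, -0.10, 0.20 and 0.26. The near-equal medians thus do not describe each member, and the marker median was not taken with any other library left out. Vdac2, an outer membrane pore, averaged 39.2 FPKM in KD and 62.7 FPKM in NC (log2 difference -0.66, limma adjusted p = 0.000288). Citrate synthase, Cs, averaged 73.9 FPKM in KD and 104 FPKM in NC (log2 difference -0.50, limma adjusted p = 0.00528). Glud1, glutamate dehydrogenase, averaged 46.4 FPKM in KD and 61.0 FPKM in NC (log2 difference -0.39, limma adjusted p = 0.0026). Sdha, a subunit of succinate dehydrogenase, did not pass, at 74.5 FPKM in KD and 68.8 FPKM in NC. At an unadjusted p under 0.05, 0 were higher, as with voom. Without KD1, 5 fell and 1 rose. Calls over all genes tested rose as well, from 1672 to 2648 lower and from 1344 to 2572 higher. The part of mitochondrial mass in the members' differences was not tested. Over the lists, the calls of Atp23, Cct7, Hsf1, Oma1, Phb2, Tfam, Timm17a and Xpnpep3 also ended when chromosome medians were removed, with limma adjusted p of 0.0503 for Oma1 to 0.222 for Tfam.

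**Figure D5:**
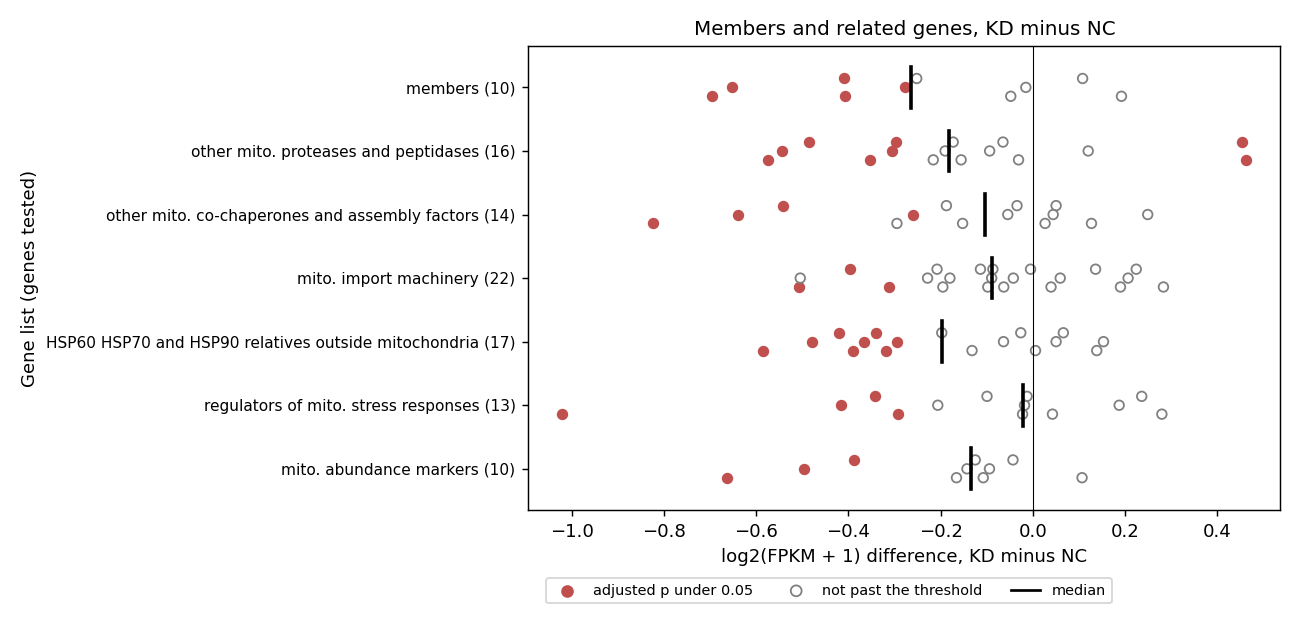
Log2(FPKM + 1) difference, KD minus NC, of each tested gene in the members and in the 6 lists of related genes, with the number tested in brackets. Filled points passed a limma adjusted p under 0.05, open points did not, and vertical bars are medians. With all 6 libraries, as drawn, these are -0.26 for the members and lie between -0.20 and -0.02 for the 6 lists. Without KD1 the member median was -0.16. Lower than that were the other proteases (-0.24) and the relatives outside mitochondria (-0.27), while the remaining lists lay above the members.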

How the data were processed

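Gene expression was measured by paired-end RNA sequencing in 6 libraries, 3 KD and 3 NC. Reads were aligned with HISAT2 2.0.5, per the labels' protocols, to mm10, per the submitters' processing notes. Which tool counted them, with what strand setting and annotation, is not stated. The deposited values are FPKM per gene with gene length, per the file headers. Each value times its length, divided by a step fitted for its library, gave a whole number (100% within 0.01). These numbers are called reads here, though with paired-end data they may be fragments, and the depths given are their sums. All 6 sample columns were used (0 were left out).

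The FPKM values were compared on the log2(FPKM + 1) scale by limma (version 3.58.1, under R 4.3.3) with a trend in the moderation and Benjamini-Hochberg adjustment over the 12299 genes averaging at least 1 FPKM. A difference on this scale understates the change of low genes. Python 3.11.15 with pandas 2.3.3 made the tables, and matplotlib 3.10.9 the figures. Deposited coordinates were compared with GENCODE M21, where all 10 members matched.

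The members and lists were chosen with earlier results of these data known. Genes named were the members, Calu and, from each list, up to 4 genes past the threshold with the largest absolute difference; further names are picks made after values were seen. Alternatives were other pseudocounts, filters and scalings, no trend, a replicate block, voom on the recovered reads, removal of a GC and length trend (GC content known for 99.86% of genes) or of chromosome medians, and leaving out each library. Main transcript lengths were added after the data were seen.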

Additional observations from a re-analysis of the deposited data

How the results depend on the processing

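Under the 17 alternatives no direction of a called result reversed. Of the 32 single-gene results, 20 kept their side of the threshold in every alternative that tested them. Among these, Immp2l and Dnajc15 averaged under 5 FPKM and were not tested with the filter at 5 FPKM. The median of the members was -0.35 to -0.16 when 1 library was left out. Members past the threshold then numbered 4 to 5 lower and 0 to 2 higher, the 2 being Clpp and Spg7 without KD1. With 1 library left out, all tested genes gave 590 to 2572 higher and 923 to 2648 lower, with the most of each without KD1. The ranges of higher and lower genes were 0 to 3 and 4 to 8 for proteases, 0 to 1 and 2 to 4 for co-chaperones, 0 to 1 and 2 to 3 for import, 0 to 1 and 5 to 10 for relatives outside mitochondria, 0 to 2 and 2 to 4 for regulators, and 0 to 1 and 3 to 5 for mass markers. Removing the GC and length trend gave 2269 higher genes, import 1 higher and 5 lower, relatives outside mitochondria 3 higher and regulators 2 higher. Removing chromosome medians gave proteases 1 higher, regulators 1 higher and 2 lower, and mass markers 5 lower. Proteases had 0 higher with no filter and 0 with a filter at 5 FPKM, which left Lactb and Oma1 untested. Regulators had 1 higher with a pseudocount of 0.1, 1 with equal totals and 2 with voom, and relatives outside mitochondria 1 higher with voom. The cause of the other changes was not tested. The call of Trap1 ended in 11 alternatives. Same-numbered KD and NC libraries deviated from their group means with correlations of 0.0791, -0.0434 and 0.154, so the numbers were not taken to pair them; with the replicate block 1050 genes were higher, 1383 lower, and 4 members lower. Spg7, the member with the lowest level, rested on 2211 reads in KD and 1755 in NC.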

Other observations

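Genes whose RefSeq window held 3 or more heat shock element matches, as those of Hspd1 and Hspe1 did, were listed after the members' windows had been seen. There were 80 such genes and 23 were tested, 21 of them not members. Of these 21, 4 fell (Arpc2, Rbm28, Umad1 and Hsph1), 4 rose (Galnt11, Deaf1, Gm13544 and Rps18) and 13 did not pass the limma threshold, with a median log2 difference of -0.06. Each count of 4 is 19.0% of the 21, beside 13.6% lower and 10.9% higher over all genes tested. Hsph1, an exchange factor of cytosolic HSP70 and a known heat shock gene, averaged 12.5 FPKM in KD and 15.5 FPKM in NC (log2 difference -0.29, limma adjusted p = 0.022). The differences of the 21 genes lay between -0.41, for Arpc2, and 0.61, for Rps18, among those past the threshold. All of these genes were picked after their values were seen.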
